A study of Mus musculus with 15 samples.

Results

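Collagens, laminins and integrins were examined in RNA from sorted parvalbumin neuron nuclei of the mouse cortex. The members are the genes whose symbols follow the naming of collagen chains (Col), laminin chains (Lama, Lamb, Lamc) and integrin subunits (Itga, Itgb) and are listed in all libraries. The rule leaves out Itga7, Itga8, Col24a1 and Col16a1. It gave 76 members of 46380 gene symbols shared by the 2 sets of deposited tables: 42 collagen chains, 11 laminin chains and 23 integrin subunits. The 4 left-out genes were removed with results of these data known, and Itga7, Col24a1 and Col16a1 passed the test between mutant and control nuclei, so the members are what remains of these families without those genes.

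Collagens are triple-helical proteins of the extracellular matrix: some form fibrils, some sit on fibrils (the FACIT collagens), collagen IV forms the network of basement membranes, and a few stay anchored in the cell membrane. Laminins are cross-shaped trimers of 1 alpha, 1 beta and 1 gamma chain that start basement membrane assembly. Integrins are heterodimers of an alpha and a beta subunit that bind these proteins at the cell surface and link them to actin through talin, kindlin and paxillin. Parvalbumin neurons are fast-spiking GABAergic interneurons, many of which carry a dense matrix coat, the perineuronal net. Thyroid hormone acts through nuclear receptors, including the TRalpha1 product of Thra, which bind DNA at copies of the half-site AGGTCA.

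All mice were adults carrying PvCre, a Cre driver for parvalbumin neurons, and a Cre-dependent ROSA-tomato-lox reporter that labels nuclei for sorting. In the PTU group (3 libraries), Thra+/+ mice ate PTU, an inhibitor of thyroid hormone synthesis, in food pellets for 2 weeks. PTU_TH mice (4 libraries) were Thra+/+, had the same diet and were injected intraperitoneally with thyroid hormone 24 h before dissection. Ctrl mice (4 libraries) were untreated and Thra+/+, and Mut mice (4 libraries) were their untreated ThraAMI/+ littermates, whose floxed allele yields the dominant negative receptor TRalpha1L400R after Cre recombination. Each library came from the cortex of 1 mouse. The mutant receptor and the reporter both depended on the same Cre, so the sorted nuclei are those in which Cre was active. PTU and PTU_TH were deposited with another gene list than Ctrl and Mut, so each comparison was made within its set. Comparing PTU_TH with PTU asks what returning hormone does within a day, and comparing Mut with Ctrl asks what blocking the receptor does in these neurons.

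Totals ranged from 12957838 to 19141683 counts in the PTU and PTU_TH libraries and from 22333742 to 32571175 in the Ctrl and Mut libraries. Thra measured 57.8, 57.8, 48.2 and 62.8 CPM (the gene's counts scaled to a common library total) in Ctrl and 29.0, 29.5, 37.4 and 31.6 in Mut, so every Mut library was below every Ctrl library; a gene count does not show the point mutation itself. Counts of Y-linked genes were present in PTU 6 and 7, PTU_TH 3 and 4, Ctrl 2 and Mut 1, 2 and 3, and so were unevenly spread over Ctrl and Mut. In the PTU and PTU_TH set the 3 libraries without Y-linked counts also gave the largest share of counts to genes over 100 kb. These values are given below beside the members that move with them. As the libraries are bulk samples of many nuclei, fewer nuclei of a type and less RNA per nucleus cannot be told apart.

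Collagen chains made up most of the members' counts, and together the members took 1371 to 1692 CPM in every library. Of the 76 genes, 19 averaged at least 10 CPM over the 15 libraries, 31 averaged from 1 to under 10 CPM and 26 stayed under 1 CPM. A count was present in every library for 52 members. Col10a1, the collagen of hypertrophic cartilage, was at 0 in every library, where 3 counts would correspond to 0.0921 to 0.232 CPM.

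Col19a1 stood far above the rest. This FACIT collagen, known from basement membrane zones and from interneurons of the developing brain, averaged 618 CPM and took 40.1% of all member CPM. Per kb of exon, the scale on which genes can be compared, it measured 89.7 CPM per kb with a range of 65.1 to 111 over libraries. The next member, Col4a2, measured 13.5 CPM per kb with a range of 7.55 to 20.7, 6.65 times lower. Col19a1 against Col4a2 was the one neighbouring pair among the 20 highest members whose ranges did not overlap, so the order of the following genes is not firm.

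Below Col19a1, the levels per exon length outlined which chains these nuclei transcribed. Among the collagens they were Col4a2 and, at 3.02 CPM per kb, Col4a1, the pair of chains that make the common collagen IV network; Col11a1 at 10.98, a chain of the fibril-starting collagen XI; Col26a1 at 6.66; the membrane-anchored Col25a1 at 4.64; and Col20a1 at 2.88 CPM per kb. Col4a2 was 4.47 times higher than Col4a1 on this scale, although the genes lie head to head on the same chromosome.

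Among the laminin alpha chains Lama3 led at 5.77 CPM per kb, followed by Lama1 at 1.96. Lamb1, the beta1 chain, measured 4.35 and Lamc1, the gamma1 chain, 4.47 CPM per kb. Lamb3, the beta3 chain, averaged 6.82 CPM, before any correction for length.

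Among the integrins Itgb1, the shared beta subunit of the collagen and laminin receptors, measured 13.2 CPM per kb. The laminin-binding Itga3 and Itga6 followed at 8.47 and 4.95, Itga9, a receptor subunit for tenascin and other ligands, at 4.71, the RGD-binding Itgav and Itga5 at 4.10 and 3.30, and Itgb3, a partner of Itgav, at 2.56 CPM per kb. The collagen-binding subunits were lower, with Itga11 at 0.895 and Itga10 at 0.520 CPM per kb (4.59 and 2.70 CPM before correction for length). Of the exonic bases of Itga10, 33.5% are shared with Gm42957, so its reads may belong to that gene.

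**Figure D1:**
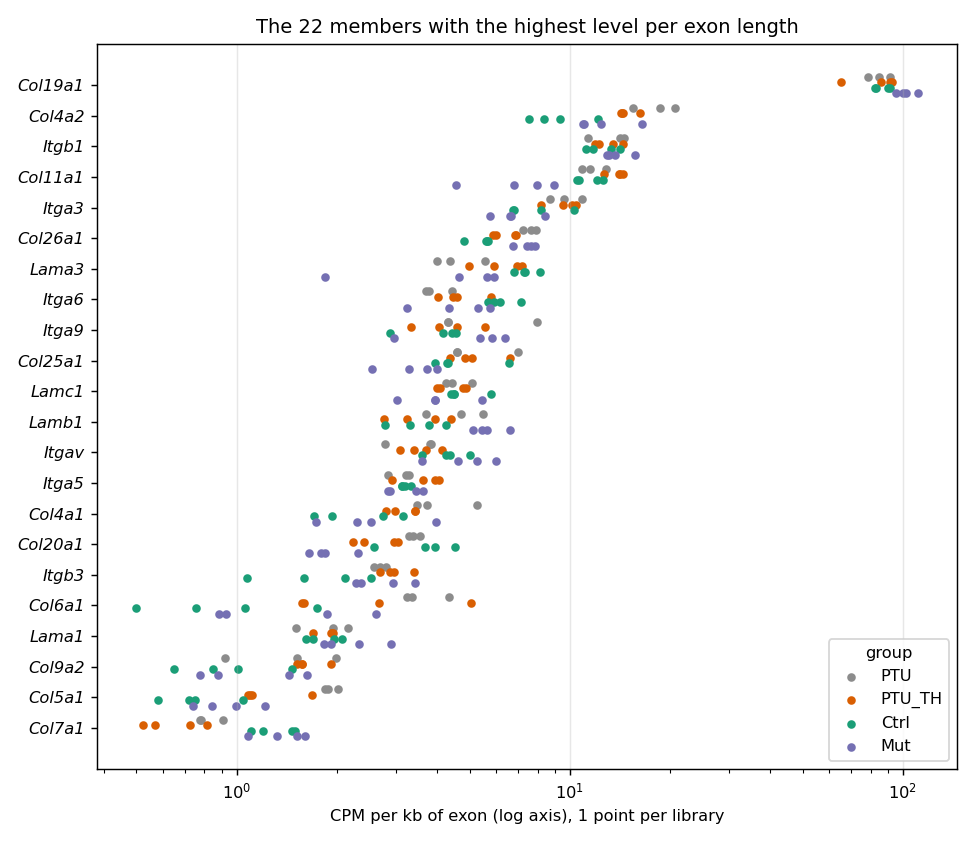
Levels of the 22 highest members as CPM per kb of exon on a log axis, 1 point per library and 1 colour per group. Col19a1, at 65.1 to 111 CPM per kb, lies to the right of all other members, whose ranges overlap with their neighbours.

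The fibrillar chains that mark connective tissue were near 0, and the leukocyte integrins were low. Col1a1, Col1a2 and Col3a1, the main fibrillar collagens of fibroblasts, averaged 0.00953, 0.107 and 0.0487 CPM and reached at most 0.346 CPM in any library. Itgb2, the beta subunit of leukocyte integrins, averaged 0.285 CPM and Itgal 0.110 CPM. Itgae, an alpha subunit of tissue lymphocytes, averaged 1.96 CPM, with counts in all 15 libraries. Itgad, an alpha subunit that pairs with Itgb2, averaged 3.25 CPM, but 19.7% of its exonic bases are shared with other annotated genes, so its reads may belong to a neighbour.

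Marker lists of other cell types gave the setting. The 12 parvalbumin neuron markers summed to 7036 to 11507 CPM per library. Of them Tac1, a neuropeptide precursor gene, was called, higher in Mut (1.17 ± 0.19, edgeR adjusted p 0.0243). In Mut 6 of the 12 were above 0 and 6 below. Pvalb itself was a small part of the sum, at 110 to 136 CPM in Ctrl and 63.8 to 95.8 CPM in Mut. Its difference was -0.63 ± 0.13 in Mut (edgeR adjusted p 0.0780) and 0.47 ± 0.12 with hormone (0.277), not called in either comparison. The 9 fibroblast and meningeal markers summed to 3.92 to 12.6 CPM, with Lum at 0 in every library and 6 of 9 averaging under 1 CPM. The 9 pericyte and smooth muscle markers summed to 2.25 to 17.4 CPM, with 6 of 9 under 1 CPM.

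Endothelial markers, 10 genes, summed to 9.36 to 44.8 CPM, the highest sum being in Mut 2 and the next 25.1 in Ctrl 2. Col4a1 and Col4a2, which brain vessels also express, measured 12.9 and 72.7 CPM in Mut 2. In Mut 4, where the endothelial sum was 18.9 CPM, they measured 29.6 and 109 CPM. The part of vessel cells in the collagen IV levels was not tested. The 8 astrocyte markers summed to 28.6 to 57.3 CPM, the 10 oligodendrocyte lineage markers to 80.3 to 225, the 12 excitatory neuron markers to 309 to 475, and the 10 microglia and leukocyte markers to 56.1 to 102 CPM. Single genes made up much of the last 2 sums. Among the excitatory markers Camk2a averaged 190 CPM, and Neurod1 was at 0 in every library. Among the microglia and leukocyte markers 1 gene averaged 73.0 CPM, P2ry12 was at 0 in every library and 4 of 10 averaged under 1 CPM. Markers of other interneurons, 8 genes such as Sst, Vip and Npy, summed to 136 to 161 CPM in Ctrl and 171 to 294 CPM in Mut without overlap, and to 121 to 178 in PTU and 83.9 to 170 in PTU_TH. The part of these cells in the differences between Mut and Ctrl given below was not tested.

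**Figure D2:**
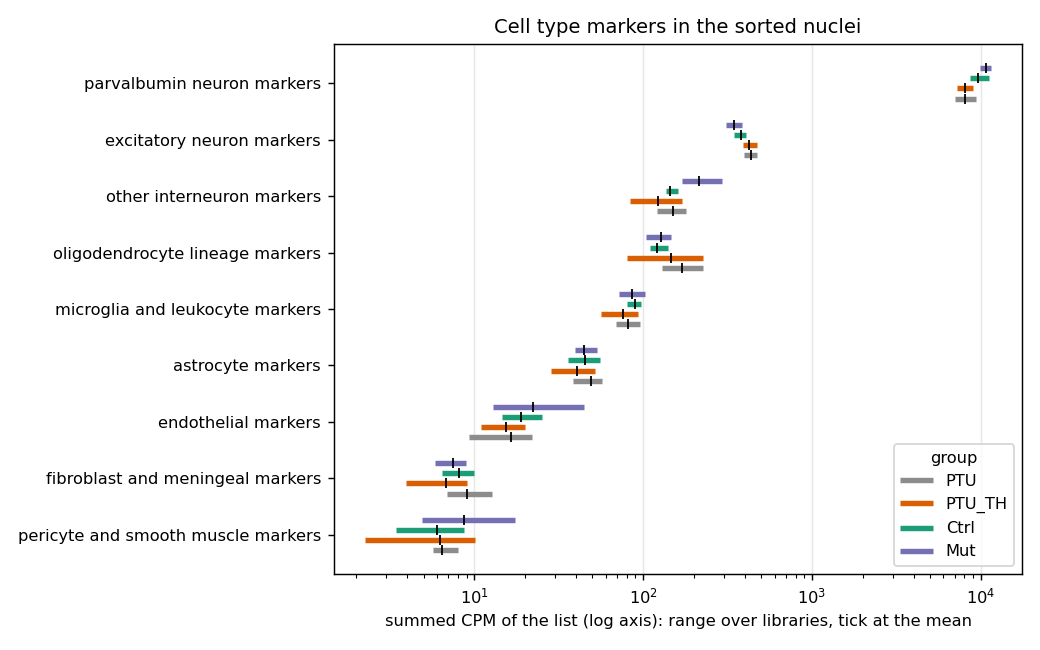
Summed CPM of each cell type marker list on a log axis, with the range over the libraries of each group and a tick at the group mean. Parvalbumin neuron markers lie at 7036 CPM or more, while fibroblast and pericyte markers stay at or under 17.4 CPM in all groups.

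Between Mut and Ctrl no member passed the test, although single laminin and collagen chains came close. Of 63 members tested with edgeR's quasi-likelihood test, 0 had a Benjamini-Hochberg adjusted p under 0.05, against 0.348% of the 16949 genes tested. Itga7, Col24a1 and Col16a1, which passed this test, were left out by the rule, so the 0 does not describe the whole families. DESeq2 called 5 members among 404 genes in all and limma-voom 3 among 331, where edgeR called 59 genes. Lamb1, Col20a1 and Col26a1 were called with both tools. An unadjusted p under 0.05 was found for 15 members, or 23.8% against 8.74% of all genes. Of these, 6 were higher in Mut, where 4.2% of all genes were, and 9 were lower, where 4.54% were. Group ranges did not overlap for 8 members, or 12.7% against 5.89% of all genes. The members' median log2 difference was 0.03, beside 0.01 for all genes, and 32 of 63 were above 0, against 52.3% of all genes, so there was no common direction. The median size of the difference, whatever its sign, was 0.31 for the members and 0.18 for all genes.

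Lamb1 (chr12:31265234-31329644, GRCm38) had the smallest p. It measured 27.6, 42.0, 32.9 and 37.5 CPM in Ctrl and 65.4, 54.1, 55.8 and 50.9 CPM in Mut. All 4 Mut libraries were above all 4 Ctrl libraries. The log2 difference was 0.69 ± 0.15 (SE), with an adjusted p of 0.0799. The groups differed in Y-linked counts, and with these as a covariate the difference was 0.57 with an adjusted p of 0.304. Mut 4, without Y-linked counts, measured 50.9 CPM and Ctrl 2, with them, 42.0 CPM.

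The promoters of the 4 highest-ranked chains with a RefSeq entry show the sequence next to which these differences were measured. Shown are the bases before the gene start in RefSeq (GRCm38.p6), cut back where they reach into an exon of GENCODE M21, 5′ to 3′ on the plus strand, which is the strand of all 4 genes. Capitals mark a receptor half-site AGGTCA, which reads TGACCT where it lies on the minus strand. The windows are chr12:31265043-31265233 for Lamb1, chr2:180986285-180986534 for Col20a1, chr3:114030290-114030539 for Col11a1 and chr17:34038888-34039137 for Col11a2.
Lamb1: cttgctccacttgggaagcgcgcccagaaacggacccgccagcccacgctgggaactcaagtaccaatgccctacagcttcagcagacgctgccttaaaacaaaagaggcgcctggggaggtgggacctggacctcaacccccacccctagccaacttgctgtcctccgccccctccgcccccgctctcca
Col20a1: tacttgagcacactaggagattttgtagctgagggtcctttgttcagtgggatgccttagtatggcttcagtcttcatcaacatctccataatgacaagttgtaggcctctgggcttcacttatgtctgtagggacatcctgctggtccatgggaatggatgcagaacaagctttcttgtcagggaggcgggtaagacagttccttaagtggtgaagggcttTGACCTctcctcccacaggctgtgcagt
Col11a1: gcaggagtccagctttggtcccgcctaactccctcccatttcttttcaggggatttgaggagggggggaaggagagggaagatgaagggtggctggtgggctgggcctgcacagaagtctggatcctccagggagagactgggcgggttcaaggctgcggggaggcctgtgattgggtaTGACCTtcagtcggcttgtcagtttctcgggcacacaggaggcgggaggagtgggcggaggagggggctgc
Col11a2: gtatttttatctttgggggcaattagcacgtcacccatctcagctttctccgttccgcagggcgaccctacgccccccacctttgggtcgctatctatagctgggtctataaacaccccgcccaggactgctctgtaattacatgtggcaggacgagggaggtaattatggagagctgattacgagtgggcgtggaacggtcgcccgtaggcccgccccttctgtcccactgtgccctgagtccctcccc
The half-site of Col20a1 begins 28 bases and that of Col11a1 71 bases before the RefSeq start. Searched on both strands over 250 bases before the start, AGGTCA occurs in 14.02% of 32851 promoters and in 7 of the 60 promoters of members, which belong to 54 genes (11.7%). The paired form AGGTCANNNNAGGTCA occurs in 5 promoters in all and in 0 of the members'. The RefSeq start of Col11a2 does not lie in a GENCODE M21 transcript, so its window may not be the start used in these nuclei.

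Both collagen XI chains measured lower in Mut. Col11a1 (chr3:114030540-114220718) was at 154, 160, 134 and 135 CPM in Ctrl and at 58.0, 86.8, 114 and 102 CPM in Mut, without overlap. Its log2 difference was -0.71 ± 0.18 with an adjusted p of 0.167. Col11a2, at a far lower level, was at 3.56, 6.47, 4.66 and 5.04 CPM in Ctrl and 3.27, 2.37, 2.21 and 2.70 CPM in Mut. The groups were again apart, by a narrow gap, and the difference was -0.90 ± 0.28 with an adjusted p of 0.294.

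Col20a1 (chr2:180986535-181018363), a collagen of the FACIT class, was at 23.2, 13.2, 20.3 and 19.0 CPM in Ctrl and at 9.22, 9.45, 11.9 and 8.48 CPM in Mut. Every Mut library lay below every Ctrl library; the difference was -0.97 ± 0.22 with an adjusted p of 0.105. Col26a1 (chr5:136741759-136883209, minus strand) measured higher, with 45.8, 39.4, 46.6 and 46.0 CPM in Ctrl and 62.6, 55.1, 60.9 and 64.2 CPM in Mut. The spread within its groups was small and the groups were well apart, at 0.44 ± 0.13 and an adjusted p of 0.230.

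Lama3 and Col19a1 were also apart between the groups. Lama3 was at 73.1, 78.7, 78.04 and 87.3 CPM in Ctrl and at 63.4, 19.8, 49.9 and 60.7 CPM in Mut, with Mut 2 far below the others and a difference of -0.70 ± 0.29 (adjusted p 0.504). Col19a1, the most abundant member, was at 628, 622, 570 and 567 CPM in Ctrl and 705, 687, 766 and 659 CPM in Mut, a difference of 0.23 ± 0.12 (adjusted p 0.665). Col4a4, a chain of the mature kidney collagen IV, was the eighth member without overlap, at 3.03 ± 0.94 CPM in Ctrl and 1.70 ± 0.17 CPM in Mut (SD, n = 4 each).

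No integrin subunit was among the 6 members with the smallest p. Among the receptors for laminin, Itga6 had a difference of -0.43 ± 0.19 (adjusted p 0.559) and Itga3 of -0.23 ± 0.17, while the shared subunit Itgb1 was at 51.5 ± 5.68 CPM in Ctrl and 56.5 ± 5.17 CPM in Mut (SD, n = 4 each). Itgb3 had a difference of 0.58 ± 0.25 (adjusted p 0.532), its partner Itgav 0.16 ± 0.15, Itga5 -0.01 ± 0.16, Itga9 0.36 ± 0.25 and Itga11 0.86 ± 0.40. Of 19 integrin subunits tested, 8 were above 0 and 11 below, and in none were the groups apart. Itga7, which passed the test and was left out by the rule, is not among them.

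By role, the laminin alpha chains were below 0 in 4 of 5, the exception being Lama1 at 0.28 ± 0.20. Of the 4, Lama2 (-0.19 ± 0.30) and Lama5 (-0.04 ± 0.50) were within their errors. The collagens that form beaded filaments or belong to no larger class, a group of collagen VI chains, Col7a1, Col26a1 and Col28a1, were above 0 in 7 of 8 tested. Col6a5 (0.03 ± 0.48) and Col7a1 (0.06 ± 0.21) were among these and within their errors. The FACIT collagens were below 0 in 5 of 8. Of all genes tested, 52.3% were above 0. None of the 16 role groups held a called member.

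**Figure D3:**
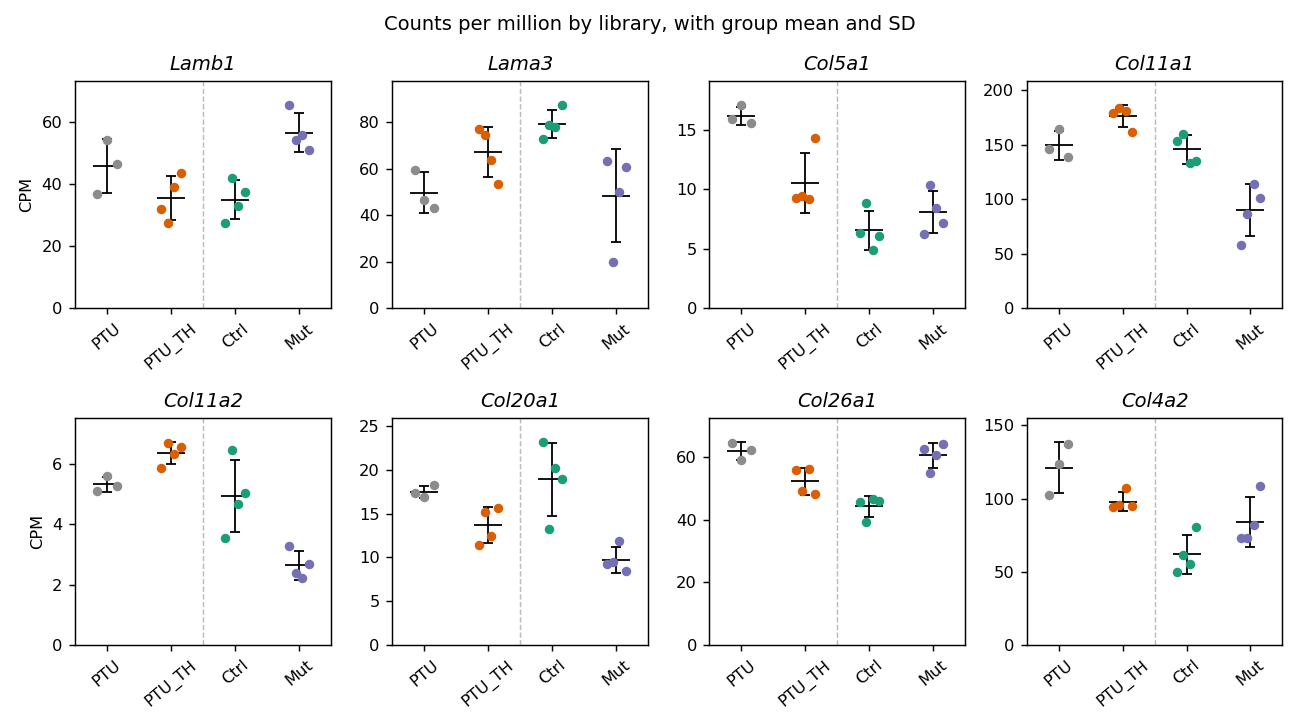
CPM of 8 members in each library by group, with the group mean and SD; the dashed line separates the 2 sets of files, whose levels were not tested against each other. In Mut, Lamb1 and Col26a1 lie above and Col11a1, Col11a2, Col20a1 and Lama3 below every Ctrl library, while the PTU_TH and PTU libraries of Lamb1 overlap.

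Between PTU_TH and PTU no member passed the test either. Of 54 members tested between PTU_TH and PTU, 0 had an edgeR adjusted p under 0.05, against 0.281% of the 15288 genes tested. DESeq2 and limma-voom also called 0 members. A fit with a surrogate variable called 4 of the 54 members, Col5a1, Itgad, Itga9 and Lama3, and 972 of the 15288 genes. The main fit called 43 genes. An unadjusted p under 0.05 was found for 6 members, or 11.1% against 7.37% of all genes. All 6 were lower in PTU_TH, where 3.47% of all genes were. Ranges did not overlap for 7 of the 54 members, against 7.25% of all genes. The members' median log2 difference was -0.03 beside -0.00 for all genes, and 31 of 54 (57.4%) were below 0, against 50.5% of all genes. Whatever its sign, the difference had a median size of 0.30 for the members and 0.15 for all genes. Such a gap was thus seen in both comparisons, and the part of low counts in it was not tested.

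Collagens were mostly on the lower side: 20 of 28 tested were below 0, with a median of -0.27. Of all genes, 50.5% were below 0, with a median of -0.00. Col25a1 (-0.01 ± 0.25) and Col23a1 (-0.03 ± 0.66) were among the 20 and within their errors. Col5a1, a chain of the thin fibrillar collagen V, was at 15.9, 17.1 and 15.6 CPM in PTU and at 9.31, 9.40, 9.18 and 14.3 CPM in PTU_TH. The groups did not overlap, although PTU_TH 4 lay close to PTU, and the difference was -0.59 ± 0.17 with an adjusted p of 0.384. Col27a1, a fibrillar collagen of cartilage, was at 3.75, 2.56 and 4.61 CPM in PTU and at 0.931, 1.36, 3.09 and 1.99 CPM in PTU_TH. Its groups overlapped, and the difference of -0.97 ± 0.40 had an adjusted p of 0.619.

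Both main collagen IV chains measured lower with hormone. Col4a2 was at 103, 124 and 137 CPM in PTU and at 94.1, 95.3, 107 and 94.7 CPM in PTU_TH, where a single library, PTU_TH 3, reached into the PTU range. The difference was -0.26 ± 0.11 with an adjusted p of 0.638. Col4a1 was at 25.96, 27.8 and 39.3 CPM in PTU and 25.6, 22.4, 25.6 and 20.98 CPM in PTU_TH, just apart, with a difference of -0.34 ± 0.16. Endothelial marker sums were 9.36 to 22.01 CPM in PTU and 10.96 to 19.99 CPM in PTU_TH.

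Col9a1, a FACIT collagen of cartilage fibrils, was at 2.52, 2.97 and 2.57 CPM in PTU and 2.22, 1.52, 1.16 and 1.40 CPM in PTU_TH, a difference of -0.72 ± 0.31 (adjusted p 0.674). Col20a1, Col26a1 and Col11a2, which were apart in Mut, were apart here as well: Col20a1 with -0.31 ± 0.17, Col26a1 with -0.21 ± 0.12 and Col11a2 with 0.30 ± 0.18. Col20a1 thus measured lower both with hormone and in Mut, whereas Col26a1 and Col11a2 had opposite signs. Col19a1 was at 632, 585 and 539 CPM in PTU and at 632, 637, 591 and 448 CPM in PTU_TH, a difference of 0.03 ± 0.21; its 3 highest values were in the libraries without Y-linked counts.

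No laminin chain passed the test. All 5 laminin alpha chains had values above 0, though Lama1 (0.04 ± 0.18) and Lama2 (0.03 ± 0.30) were well within their errors. Lama3 had the smallest p of the alpha chains, at 59.7, 46.8 and 43.0 CPM in PTU and 77.1, 74.5, 63.8 and 53.5 CPM in PTU_TH, overlapping groups with a difference of 0.47 ± 0.22 (adjusted p 0.708). The 2 beta and 2 gamma chains tested had values below 0, Lamc1 at -0.01 ± 0.16. Lamb1 was at 36.7, 54.2 and 46.6 CPM in PTU and at 32.2, 27.5, 39.0 and 43.7 CPM in PTU_TH. The groups overlapped, and the difference was -0.33 ± 0.14 with an adjusted p of 0.668. The same 7 values were separated by Y-linked counts: they were 27.5 to 36.7 CPM in the 3 libraries without and 39.0 to 54.2 CPM in the 4 libraries with them.

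Such a separation was found for 10 of the 54 tested members in this set, among them Col19a1, Col25a1, Itga9, Itga3, Itgav and Itgb1, against 40.6% of all genes tested, and for 1 of 63 in the Ctrl and Mut set, Col9a3, against 3.64% of all genes. Where Y-linked counts were missing, Itga9, Col19a1 and Col25a1 were higher, and Lamb1, Itga3, Itgav and Itgb1 were lower. Those libraries also gave 34.1% to 40.7% of their counts to genes over 100 kb, against 24.9% to 28.4% in the others, so sex-linked and length-linked differences cannot be told apart here. Members are long genes: 53.7% of those tested in this set span over 100 kb, against 14.99% of all genes tested that have a position. The 3 longest, Lama2 (640 kb), Col25a1 (468 kb) and Col19a1 (326 kb), had hormone differences of 0.03 ± 0.30, -0.01 ± 0.25 and 0.03 ± 0.21.

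Integrin differences with hormone were within 2 SE in the subunits named here, with Itgad the exception by p. Itgb1 was at 54.5 ± 7.23 CPM in PTU (SD, n = 3) and 53.1 ± 4.69 CPM in PTU_TH (SD, n = 4), a difference of 0.00 ± 0.09, and Itga3 had a difference of 0.01 ± 0.10. Itga6 was at 0.30 ± 0.20, Itga5 at 0.27 ± 0.18, Itgb3 at 0.19 ± 0.14, Itgav at 0.09 ± 0.11 and Itga9 at -0.30 ± 0.31. Itgad was at 3.43, 2.07 and 2.17 CPM in PTU and at 1.07, 1.52, 1.08 and 1.03 CPM in PTU_TH, apart, with -1.07 ± 0.36 and an adjusted p of 0.460. Its exons overlap Cox6a2, listed at 0 in all libraries, and other genes. How reads on shared exons were assigned is not stated, so this 0 does not show that Cox6a2 was silent.

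The hormone and mutant effects were then set against each other in 1 model over all 15 libraries, each effect within its own set. Lamb1 was the 1 of 65 members whose effects differed, at -1.03 ± 0.22 for the hormone effect minus the mutant effect (edgeR adjusted p 0.0183); 1.93% of 17317 genes passed. That call rests in part on a single library: without PTU 6, which had the highest Lamb1 value of its group, the difference was -0.89 with an adjusted p of 0.0705. With Y-linked counts as a covariate, an alternative chosen after the data were seen, it was -0.86 with an adjusted p of 0.0227.

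Col11a1 followed at 0.98 ± 0.25 (adjusted p 0.0513), Col26a1 at -0.66 ± 0.17 (0.0577) and Col11a2 at 1.19 ± 0.33 (0.0811). Among the laminins, Lama3 had 1.17 ± 0.41, with an adjusted p of 0.200. The unadjusted p was under 0.05 for 14 of 65 members, or 21.5% against 11.5% of all genes. Signs were opposite in the 2 comparisons for 33 of 54 members (61.1%), 15 higher with hormone and lower in Mut and 18 the reverse, against 62.6% of 14048 genes. The members' share of opposite signs was thus that of genes in general.

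**Figure D4:**
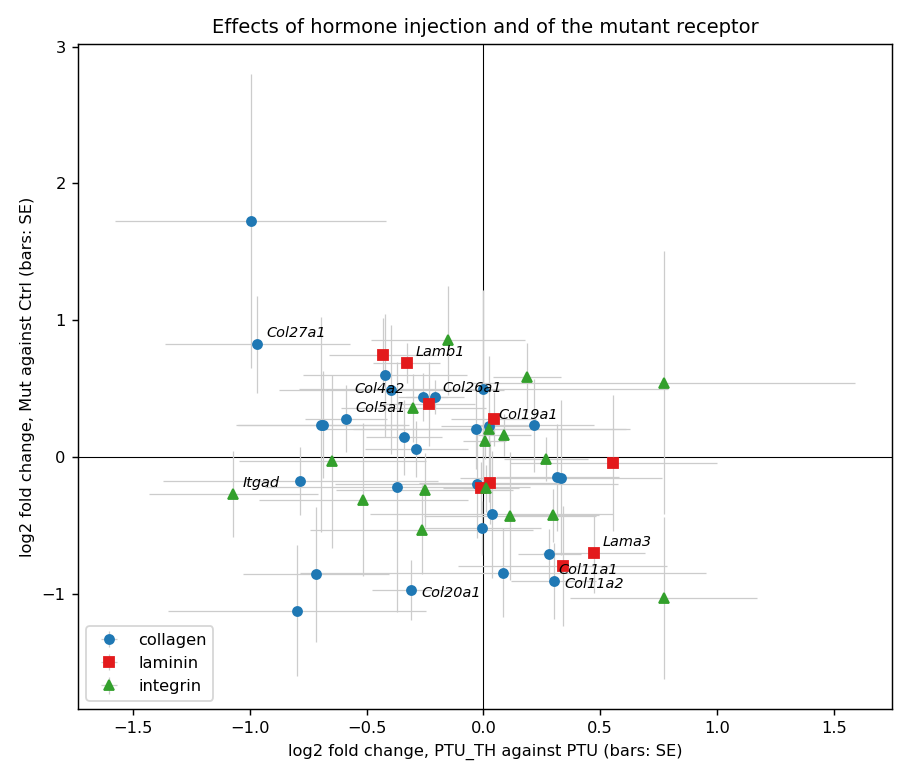
Log2 differences of the 54 members tested in both comparisons, PTU_TH against PTU on the horizontal and Mut against Ctrl on the vertical axis, with SE bars. Lamb1, Col26a1 and Col27a1 lie at the upper left, Col11a1, Col11a2 and Lama3 at the lower right, and Col20a1 is below 0 on both axes.

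Genes that work with the members were read from 4 lists. Of all genes tested, 7.37% had an unadjusted edgeR p under 0.05 with hormone and 8.74% in Mut. Of 18 integrin adaptors tested in each comparison, 0 were called in either; by unadjusted p under 0.05 there were 2 in each. Parva, an actin-binding partner of integrin-linked kinase, was at 48.4 ± 3.41 CPM in Ctrl and 27.7 ± 6.62 CPM in Mut (SD, n = 4 each), a difference of -0.81 ± 0.19 with an adjusted p of 0.116. Pxn, paxillin, was at 45.1 ± 5.27 CPM in PTU (SD, n = 3) and 29.3 ± 2.94 CPM in PTU_TH (SD, n = 4), -0.57 ± 0.14 with an adjusted p of 0.234.

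Among other collagen and laminin receptors, 0 of 9 were called in either comparison. An unadjusted edgeR p under 0.05 was found for 2 with hormone and 3 in Mut, beside 7.37% and 8.74% of all genes. Ddr1, a collagen-activated receptor kinase, had 0.26 ± 0.10 with hormone and -0.47 ± 0.14 in Mut, and Dag1, dystroglycan, had -0.06 ± 0.11 and -0.05 ± 0.26. Of the enzymes that modify, fold and crosslink collagen, 0 of 19 were called with hormone (2 at an unadjusted p under 0.05) and 0 of 21 in Mut (4). Serpinh1, the collagen chaperone, averaged 0.232 CPM.

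The basement membrane and matrix partners held the 1 called gene of the 4 lists. Npnt, nephronectin, a matrix ligand of the integrin made of the Itga8 and Itgb1 products, rose from 48.1 ± 9.21 CPM in PTU (SD, n = 3) to 95.6 ± 18.7 CPM in PTU_TH (SD, n = 4), 1.03 ± 0.14 with an adjusted p of 0.0278. It fell from 66.6 ± 4.26 CPM in Ctrl to 35.4 ± 3.24 CPM in Mut (SD, n = 4 each), -0.92 ± 0.12 with an adjusted p of 0.00761. Its receptor subunits were not called: Itga8 had -0.08 ± 0.38 with hormone and 0.08 ± 0.17 in Mut, and Itgb1 the values given above. An unadjusted edgeR p under 0.05 was found for 5 of the 11 genes of this list tested with hormone and for 2 of 11 in Mut. The shares of all genes were 7.37% and 8.74%. The second in Mut was Thbs1, thrombospondin-1, at 0.975 ± 0.378 CPM in Ctrl and 4.09 ± 1.78 CPM in Mut (SD, n = 4 each), 2.05 ± 0.44 with an adjusted p of 0.0810; it was named after its values were seen. Agrn and Tnr, the most abundant genes of this list, were not called in either comparison.

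The 3 called genes that the rule leaves out, chosen on these same values, had larger mutant differences than most members, which the rule itself fixes. Itga7, Col24a1 and Col16a1 had -1.82 ± 0.13, -1.92 ± 0.15 and -2.09 ± 0.20 in Mut and 0.71 ± 0.12, 0.57 ± 0.16 and 0.42 ± 0.15 with hormone. Some members of low level had large fitted differences with wide errors, named here after their values were seen. In Mut, Lamb2, the beta2 chain, had -2.33 ± 0.93 (adjusted p 0.473), Col6a2 1.72 ± 1.07 (0.752), Col8a1, a short-chain network collagen, -1.12 ± 0.48 (0.524) and Itgb7, an integrin beta subunit of lymphocytes, -1.03 ± 0.59 (0.712).

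Levels also differed between the 2 sets of files. For 7 members, no library of one set reached the other: Col6a6, Col7a1, Col18a1, Col4a4, Col4a3, Col6a5 and Itgam were all higher in the Ctrl and Mut set, and none was higher in the PTU and PTU_TH set. Among the 65 members tested in the model of all libraries, 6 were higher in this way (Col4a3 was not tested there), against 12.4% of 17317 genes, and 0 were higher in the other direction, against 1.7%. The members' share was not above that of genes in general. Col6a6, a collagen VI chain, averaged 0.832 CPM over PTU and PTU_TH and 13.6 CPM over Ctrl and Mut, 16.4 times higher, and Col7a1, the anchoring fibril collagen, averaged 7.49 and 13.9 CPM. Itgam, an alpha subunit of microglia and other myeloid cells, was at 0 in all PTU and PTU_TH libraries and averaged 1.15 CPM in the other set. Of its exonic bases, 68.7% are shared with Gm49368, a gene listed only in the PTU and PTU_TH tables. The set of files, its gene list and the PTU diet cannot be told apart, so no such difference is read as an effect of treatment.

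**Figure D5:**
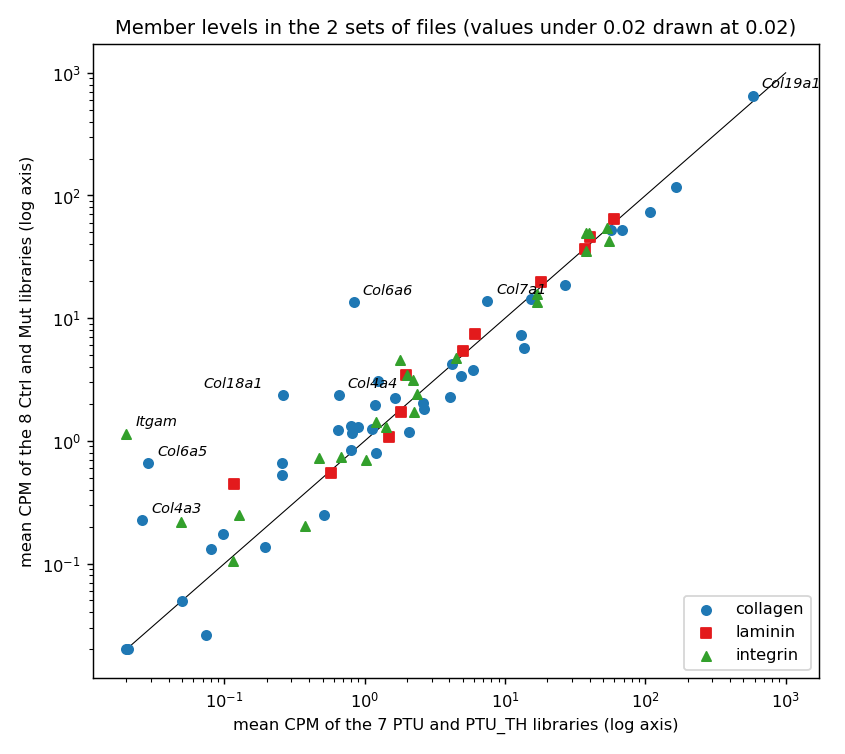
Mean CPM of each member in the PTU and PTU_TH libraries against that in the Ctrl and Mut libraries, both axes logarithmic, with the line of equality. Most members lie along the line up to Col19a1, and the 7 labelled members above it, such as Col6a6 and Itgam, are those whose sets do not overlap.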

How the data were processed

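Nuclei were sorted from frozen cortices, RNA was amplified with a SMART-Seq v4 kit and libraries were made with Nextera XT, per the labels' protocols. The authors deposited raw counts per gene, 1 table per library; the submitters' processing notes name Bowtie2 2.5.3, HTSeq and the mm10 build (GRCm38). How reads on overlapping genes were assigned, and whether strand was used, is not stated in the labels, which leaves the counts of such genes uncertain. CPM are counts scaled to the library's total. Exon lengths and positions came from GENCODE M21 (GRCm38), which placed all 76 members, and promoters from RefSeq GRCm38.p6.

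Each comparison was fitted on the whole table with edgeR 4.0.16 in R 4.3.3: TMM scaling, filterByExpr with a minimum count of 10, a robust quasi-likelihood fit and Benjamini-Hochberg adjustment over all genes, called under 0.05. Errors of log2 differences are SE from this fit. Replicates are single mice. Of the members, 54 were tested for hormone, 63 for the mutant and 13 for neither. The common biological coefficient of variation was 23.0% and 27.8%. On simulated counts, 76% of 2-fold and 100% of 4-fold changes were recovered for PTU_TH against PTU (15288 genes) and 79% and 100% for Mut against Ctrl (16949 genes). Of 186 and 191 simulated calls, 10 and 12 were false. Changes were set only in genes above a minimum mean level, and the spread of each gene followed the trend with level. These shares do not cover members of low level or changes under 2-fold, so they do not give the power behind the counts of called members. Alternatives were other scalings and filters, DESeq2 1.42.0, limma-voom 3.58.1, sva 3.50.0, a Y-linked covariate, a replicate block and leaving out each library.

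Members and gene lists were chosen with earlier results of these data known. Members named are those called, those with the 6 smallest p in each comparison, the 2 highest of each role, those apart in both comparisons and the 3 longest; Col4a4, Col6a6, Col7a1 and a few others were named after their values were seen. 1 member that the rule names is not reported here.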

Additional observations from a re-analysis of the deposited data

Results flagged for a closer look

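In 9 of 108 groups of 4 libraries of the named members, 1 library stood apart from the other 3 by its gap relative to the group's range; chance alone sets apart about 1 in 20 groups. In PTU_TH these were Col15a1 in PTU_TH 3 (1.39 CPM, others at most 0.443), Col4a2 in PTU_TH 3 (107 CPM, others at most 95.3), Col5a1 in PTU_TH 4 (14.3 CPM, others at most 9.40), Lama1 in PTU_TH 4 (16.4 CPM, others at least 18.5) and Itgad in PTU_TH 2 (1.52 CPM, others at most 1.08). In Ctrl they were Col25a1 in Ctrl 1 (84.8 CPM, others at most 55.7), Col26a1 in Ctrl 2 (39.4 CPM, others at least 45.8) and Lamc1 in Ctrl 2 (48.1 CPM, others at most 37.1). In Mut it was Col15a1 in Mut 1 (0.798 CPM, others at most 0.127).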

How the results depend on the processing

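The count of 0 called members between PTU_TH and PTU held under all alternatives run except a fit with a surrogate variable estimated from the data, which called 4 (Col5a1, Itgad and Itga9 lower, Lama3 higher) and 972 genes in all; DESeq2, limma-voom and the Y-linked covariate called 0 members and 204, 171 and 335 genes, beside 43. Between Mut and Ctrl the count of 0 became 5 with DESeq2 (Lamb1, Col11a1, Col11a2, Col20a1 and Col26a1), 3 with all 4 groups in 1 fit (Lamb1, Col11a1 and Col20a1), 3 with limma-voom (Lamb1, Col20a1 and Col26a1) and 1 with a surrogate variable (Lamb1); these called 404, 196, 331 and 169 genes in all, beside 59. The Y-linked covariate gave 0 members and 31 genes, a floor of 1 CPM 90 genes, and leaving out 1 library 0 members and 11 to 103 genes. Leaving out 1 library gave 5 to 29 genes between PTU_TH and PTU. For the difference between the effects, the count of 1 became 2 with RLE scaling, 2 with a Y-linked covariate, 6 with DESeq2 and 6 with limma-voom, the last 3 chosen after seeing the data, and 0 to 2 with 1 library left out; 208 to 396 genes passed there. DESeq2 called 692 and limma-voom 929 genes for it, beside 335. Some named members changed sign under at least 1 alternative. Between Mut and Ctrl they were Col4a1, Col18a1, Itga5 and Itgav, which was -0.00897 with limma-voom and 0.16 in the edgeR fit. Between PTU_TH and PTU they were Col19a1, Col23a1, Col25a1, Itga3, Itga9, Itga11, Itgae, Itgb1, Lama1, Lama2 and Lamc1. For the difference between the effects they were Col8a1, Col9a1, Col18a1, Col23a1, Itga10 and Itgav. The cause of these changes was not tested. With the replicate number as a block, Mut against Ctrl gave 0 members and 82 genes; deviations of same-numbered libraries correlated at 0.116, 0.202, -0.0209 and 0.0849, so the numbers were not read as pairs, and PTU and PTU_TH share no numbers. Members under 1 CPM rest on few counts, and intervals from counts do not cover amplification.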
